A study of Mus musculus with 8 samples.

Results

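The 10 genes described here are 6 secreted Wnt antagonists (Sfrp1, Sfrp2, Sfrp4, Frzb, Dkk2 and Dkk3) and 4 genes of fibro-adipogenic progenitors (Pdgfra, Dpt, Pi16 and Osr1). They were chosen by name, out of 19752 genes with a row of their own on the array, with the log2 levels on the 8 arrays and the contrast of genotypes already known. Their levels, differences and spreads in that contrast are therefore given as a description with no test. Each had exactly 1 row in the deposited table, and all 10 were among the 15007 genes that passed the filter on dim rows (a mean log2 level of at least 6.35).

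Male C57BL/6 mice had the tibialis anterior, a muscle of the lower leg, injured with a nitrogen-cooled metal probe held on it for 8 seconds, and the whole muscle was taken 8 days later. The 4 ST2 flox samples carried floxed ST2 alleles with Foxp3-Cre, and the 4 ST2 WT samples carried wild-type ST2 with the same Foxp3-Cre. Age is given as 10 weeks in the sample labels and as 2 months in the series text. Foxp3 drives the Cre in regulatory T cells, so the model removes the interleukin-33 receptor ST2 from cells that make up a small share of the muscle, while every cell of the muscle contributed RNA. ST2 itself is not analysed here, so the deletion was not checked on these arrays. Each sample was hybridised to 1 Affymetrix Mouse Gene 1.0 ST array. The labels do not say that each sample came from its own mouse, and the spread between samples may be technical.

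Wnt proteins are secreted signals that bind Frizzled receptors and LRP coreceptors and, in the best known branch, stabilise beta-catenin so that it activates target genes with TCF and LEF factors. Secreted Frizzled-related proteins carry a Frizzled-like domain and can bind Wnts outside the cell, while Dickkopf proteins act mostly at the LRP coreceptors. Fibro-adipogenic progenitors are the Pdgfra-positive mesenchymal cells between muscle fibres. They expand after injury, support myogenic cells, clear later in repair, and can give rise to fat and fibrous tissue when repair fails.

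Promoter windows are shown for 4 members, to set a pair of genes that shared the array pattern described below (Sfrp2 and Pi16) beside a pair that departed from it (Frzb and Dkk2). Each runs 5′ to 3′ on the gene's strand from 250 bases before to 50 bases after the annotated start, from RefSeq on GRCm38.p6, whose table held 6 of the 10 members. Capitals mark any match, on either strand, to the TATA box TATAAA, to the CCAAT box, to the GC box GGGCGG, to the TCF/LEF motif (CTTTG followed by 2 bases that are each A or T) or to the AP-1 motif TGANTCA. The Sfrp2 window is chr3:83766071-83766370 (plus strand), that of Pi16 is chr17:29318632-29318931 (plus strand), that of Frzb is chr2:80447347-80447646 (minus strand) and that of Dkk2 is chr3:132085042-132085341 (plus strand).
Sfrp2: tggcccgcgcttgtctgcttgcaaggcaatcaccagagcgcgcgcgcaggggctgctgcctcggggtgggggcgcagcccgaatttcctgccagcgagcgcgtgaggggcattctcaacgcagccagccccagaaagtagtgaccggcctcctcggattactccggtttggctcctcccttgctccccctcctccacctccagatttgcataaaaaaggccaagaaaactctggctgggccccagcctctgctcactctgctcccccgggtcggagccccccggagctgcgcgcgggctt
Pi16: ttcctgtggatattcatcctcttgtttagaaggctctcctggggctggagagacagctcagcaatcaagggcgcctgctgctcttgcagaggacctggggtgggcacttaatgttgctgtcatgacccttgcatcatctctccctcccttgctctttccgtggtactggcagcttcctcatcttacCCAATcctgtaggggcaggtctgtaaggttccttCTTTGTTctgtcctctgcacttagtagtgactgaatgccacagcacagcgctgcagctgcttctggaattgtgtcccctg
Frzb: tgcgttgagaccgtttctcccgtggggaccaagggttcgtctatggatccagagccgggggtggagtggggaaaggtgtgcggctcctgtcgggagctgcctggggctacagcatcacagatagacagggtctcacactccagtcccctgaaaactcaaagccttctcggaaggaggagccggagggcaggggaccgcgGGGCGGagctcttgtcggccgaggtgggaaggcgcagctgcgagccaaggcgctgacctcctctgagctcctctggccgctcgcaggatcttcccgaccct
Dkk2: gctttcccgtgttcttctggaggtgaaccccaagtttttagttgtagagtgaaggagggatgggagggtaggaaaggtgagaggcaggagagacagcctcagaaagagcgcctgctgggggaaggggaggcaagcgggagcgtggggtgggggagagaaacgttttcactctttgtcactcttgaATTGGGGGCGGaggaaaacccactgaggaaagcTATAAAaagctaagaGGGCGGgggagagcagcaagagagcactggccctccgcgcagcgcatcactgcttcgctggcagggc
The TCF/LEF motif was found in 1 of the 6 member windows (Pi16) and in 16.9% of all 32851 windows in the table. TATAAA was found in 2 of 6 (Dpt and Dkk2) against 13.6% of all windows. Its match began at -32 from the annotated start in Dkk2 and at 12, downstream of the start, in Dpt. CCAAT was found in 2 of 6 (Dkk2 and Pi16) against 37.4%, GGGCGG in 2 of 6 (Frzb and Dkk2) against 35.7%, and TGANTCA in 0 of 6 against 7.81%. The Sfrp2 window held no match, and no motif was shared by any pair among Sfrp2, Pi16, Pdgfra and Dpt. In the Dkk2 window CCAAT (on the other strand) and GGGCGG lie directly next to each other without overlap.

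The group means of the 10 genes lay close together, but the ST2 flox samples lay far apart from each other. Differences, ST2 flox minus ST2 WT, ran from -0.28 to 0.17 log2, with a median of -0.03 against -0.00 over all 15007 genes. Of the 10 members, 4 had the higher mean in ST2 flox (48.8% of all genes did) and no member's groups were separate (1.97% of all genes had groups that did not overlap). In the fit over all genes 0 members passed an adjusted p of 0.05, as did 0% of all genes (limma with Benjamini-Hochberg adjustment, where 3.79% had an unadjusted p under 0.05, 0 members among them). Among the 4 ST2 flox arrays the members had a median SD of 0.42 log2, against 0.10 among the 4 ST2 WT arrays, while the medians over all genes were 0.11 and 0.08. The SD was larger among ST2 flox arrays for 9 of 10 members, where 66.1% of all genes showed the same. It was at least 3 times as large for 5 members (Sfrp4, Frzb, Pdgfra, Dpt and Pi16), where 15.2% of all genes reached that ratio. An SD of 0.3 or more was seen for 8 members among ST2 flox arrays (4.26% of all genes) and for 2, Sfrp1 and Sfrp2, among ST2 WT arrays (1.41% of all genes). In whole muscle, fewer cells of a type and less RNA per cell cannot be told apart.

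**Figure D1:**
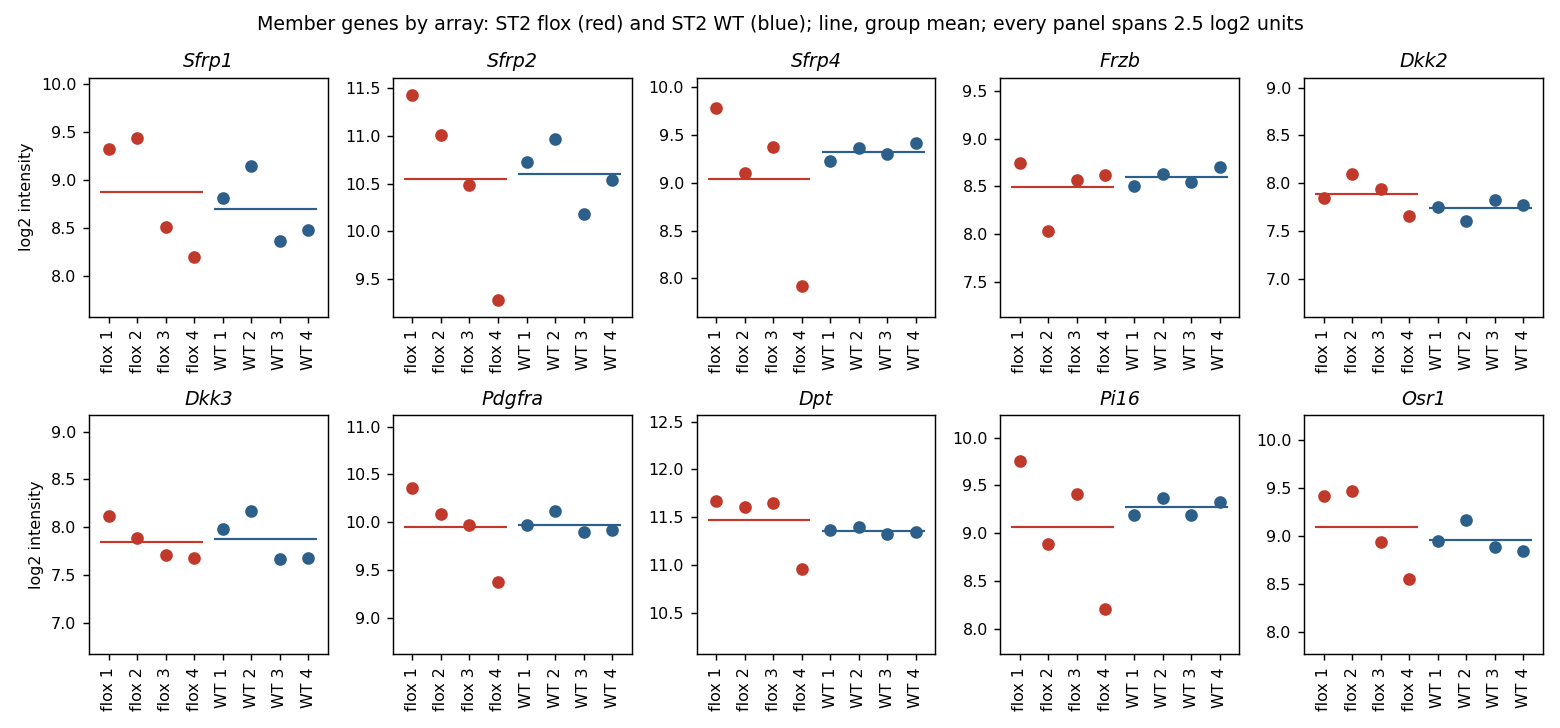
Log2 intensity of each member gene on the 4 ST2 flox arrays (red) and the 4 ST2 WT arrays (blue), with a line at each group mean and every panel spanning the same number of log2 units. For 7 of the 10 genes ST2 flox array 4 is the lowest point, and for 9 of the 10 ST2 flox array 1 lies above all ST2 WT points.

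Sfrp2 had the widest range. Its log2 level was 11.43, 11.00, 10.49 and 9.29 on ST2 flox arrays 1 to 4, against 10.72, 10.97, 10.18 and 10.54 on ST2 WT arrays 1 to 4. ST2 flox arrays 1 and 2 lay above every ST2 WT array and ST2 flox array 4 below all of them, so the groups overlapped. The highest ST2 flox array was 4.43-fold above the lowest, against 1.72-fold among ST2 WT arrays. The SD of 0.93 among ST2 flox arrays ranked 6 of 15007 genes, while its SD of 0.33 among ST2 WT arrays ranked 160. The group means, 10.55 and 10.60, differed by -0.05 (SE 0.38).

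Sfrp4, a relative of Sfrp2 that is also made by mesenchymal cells, was even on ST2 WT arrays and uneven on ST2 flox arrays. It measured 9.78, 9.10, 9.38 and 7.92 on ST2 flox arrays 1 to 4, against 9.22, 9.36, 9.30 and 9.41 on the ST2 WT arrays. ST2 flox array 4 stood 1.30 below the lowest ST2 WT array, at 0.378 of the geometric mean of the ST2 WT intensities. The SDs were 0.80 among ST2 flox and 0.08 among ST2 WT arrays, a ratio of 9.72. The difference of the means was the most negative of the 10, at -0.28 (SE 0.31), and it was 0.10 without ST2 flox array 4.

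Sfrp1 was uneven in both genotypes. Its level was 9.33, 9.44, 8.51 and 8.20 on ST2 flox arrays 1 to 4, against 8.81, 9.15, 8.36 and 8.48 on ST2 WT arrays 1 to 4. Samples numbered 1 and 2 were above samples numbered 3 and 4 in each genotype, and the groups overlapped. Its difference of 0.17 (SE 0.27) was the most positive of the 10.

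Frzb, the Frizzled-related protein first known from cartilage, did not follow the other members of its family. It measured 8.74, 8.03, 8.57 and 8.62 on ST2 flox arrays 1 to 4, against 8.51, 8.62, 8.54 and 8.70 on the ST2 WT arrays. The low array was ST2 flox array 2, at 0.56 below the ST2 WT mean, while ST2 flox array 4 was 0.03 above that mean. The difference of -0.10 (SE 0.13) became 0.05 without ST2 flox array 2.

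The Dickkopf genes varied less. Dkk2, an LRP-binding modulator, measured 7.85, 8.10, 7.94 and 7.65 on ST2 flox arrays 1 to 4, against 7.75, 7.61, 7.83 and 7.77 on ST2 WT arrays. The first 3 ST2 flox arrays lay above every ST2 WT array and the fourth lay within their range, with a difference of 0.15 (SE 0.09). Dkk3, a divergent family member, measured 8.12, 7.89, 7.71 and 7.68 on ST2 flox arrays, against 7.99, 8.17, 7.67 and 7.68 on ST2 WT arrays. It was the 1 member with a larger SD among ST2 WT arrays, 0.20 in ST2 flox and 0.25 in ST2 WT, and its difference was -0.03 (SE 0.13).

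Pdgfra, the receptor by which these progenitors are usually sorted, measured 10.36, 10.09, 9.98 and 9.38 on ST2 flox arrays 1 to 4, against 9.97, 10.12, 9.90 and 9.92 on ST2 WT arrays. ST2 flox array 4 lay 0.60 below the ST2 WT mean and ST2 flox array 1 lay 0.38 above it, and the group means differed by -0.03 (SE 0.17). Dpt, which encodes the matrix protein dermatopontin, measured 11.67, 11.61, 11.64 and 10.96 on ST2 flox arrays 1 to 4, against 11.37, 11.40, 11.32 and 11.35 on ST2 WT arrays. The first 3 ST2 flox arrays stood above all ST2 WT arrays and the fourth below them, and Dpt was the most even of the 10 among ST2 WT arrays. Its SDs were 0.34 in ST2 flox and 0.03 in ST2 WT, a ratio of 10.9, and its difference was 0.11 (SE 0.14).

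Pi16, a secreted and membrane-anchored protein that marks adventitial fibroblasts, measured 9.76, 8.89, 9.41 and 8.20 on ST2 flox arrays 1 to 4, against 9.19, 9.37, 9.19 and 9.33 on ST2 WT arrays. ST2 flox arrays 2 and 4 were below every ST2 WT array, and arrays 1 and 3 above all of them. Its difference was -0.20 (SE 0.26). Osr1, a zinc finger transcription factor of developing and injury-activated connective tissue cells, measured 9.42, 9.47, 8.94 and 8.55 on ST2 flox arrays, against 8.95, 9.17, 8.89 and 8.84 on ST2 WT arrays. The pair of high arrays was ST2 flox 1 and 2, the low one ST2 flox 4, and the difference was 0.13 (SE 0.18).

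**Figure D2:**
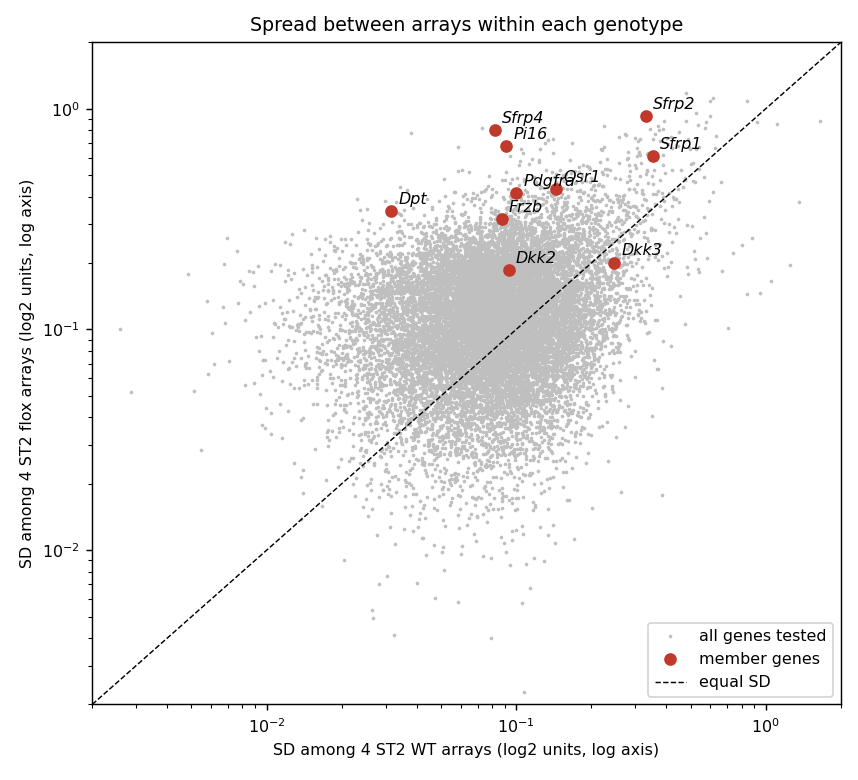
SD of log2 intensity among the 4 ST2 flox arrays (vertical, log axis) against that among the 4 ST2 WT arrays (horizontal, log axis), with all 15007 genes tested in grey and the 10 members in red. Dkk3 is the 1 member below the line of equal SDs, and Dpt and Sfrp4 lie farthest above it, at ratios of 10.9 and 9.72.

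The same arrays were extreme for most members. ST2 flox array 4 was the lowest of the 8 arrays for 7 members (18.4% of all genes), namely Sfrp1, Sfrp2, Sfrp4, Pdgfra, Dpt, Pi16 and Osr1, and for each of these it was below every ST2 WT array (23% of all genes). ST2 flox array 1 was above every ST2 WT array for 9 members, all but Dkk3, where 31.8% of all genes showed this. It was the highest of all arrays for 6 members (20.3% of all genes), and ST2 flox array 2 was the highest for the remaining ST2 flox maxima, Sfrp1, Dkk2 and Osr1 (14.5% of all genes). For 5 members, Sfrp2, Sfrp4, Pdgfra, Dpt and Pi16, the highest array was ST2 flox 1 and the lowest ST2 flox 4 (9.07% of all genes). The mean of the members' centred log2 levels was 0.41, 0.13, 0.02 and -0.59 on ST2 flox arrays 1 to 4, against 0.01, 0.16, -0.12 and -0.03 on ST2 WT arrays 1 to 4. The ST2 WT arrays therefore lay inside the range of the ST2 flox arrays. By role, the 4 Frizzled-related genes averaged 0.55 on ST2 flox array 1 and -0.77 on array 4, the 4 progenitor genes 0.41 and -0.62, and the 2 Dickkopf genes 0.14 and -0.17.

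Part of the spread followed the sample numbers in both genotypes. Arrays 1 and 2 were above arrays 3 and 4 in ST2 flox and again in ST2 WT for 5 members, Sfrp1, Sfrp2, Dkk3, Pdgfra and Osr1, where 8.39% of all genes did so, and no member showed the opposite order (9.11% of all genes). For Sfrp1 the mean of arrays 1 and 2 exceeded that of arrays 3 and 4 by 1.03 in ST2 flox and 0.56 in ST2 WT, and for Dkk3 by 0.31 and 0.41. The labels do not say what the numbers stand for.

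The direction of most group differences changed when a single array was left out. Without ST2 flox array 4, 9 of 10 members had the higher mean in ST2 flox, all but Frzb, with a median difference of 0.19 (49.1% of all genes were then higher, with a median of -0.00). Without ST2 flox array 1, 4 members were higher and the median was -0.14. Sfrp2 moved most, with 0.37 without array 4 and -0.34 without array 1. Without ST2 WT array 2, 7 members were higher, with a median of 0.07, and Sfrp2 (0.07), Dkk3 (0.07) and Pdgfra (0.02) changed sign. Without array 4 the SD was larger in ST2 flox for 9 of 10 members (53.9% of all genes), 1 of them, Dpt, by a ratio of only 1.02. The median ratio of SDs over the members was then 1.70 in place of 3.31 (1.08 in place of 1.38 over all genes), while Sfrp4 and Pi16 kept SDs of 0.34 and 0.44 in ST2 flox against 0.08 and 0.09 in ST2 WT.

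**Figure D3:**
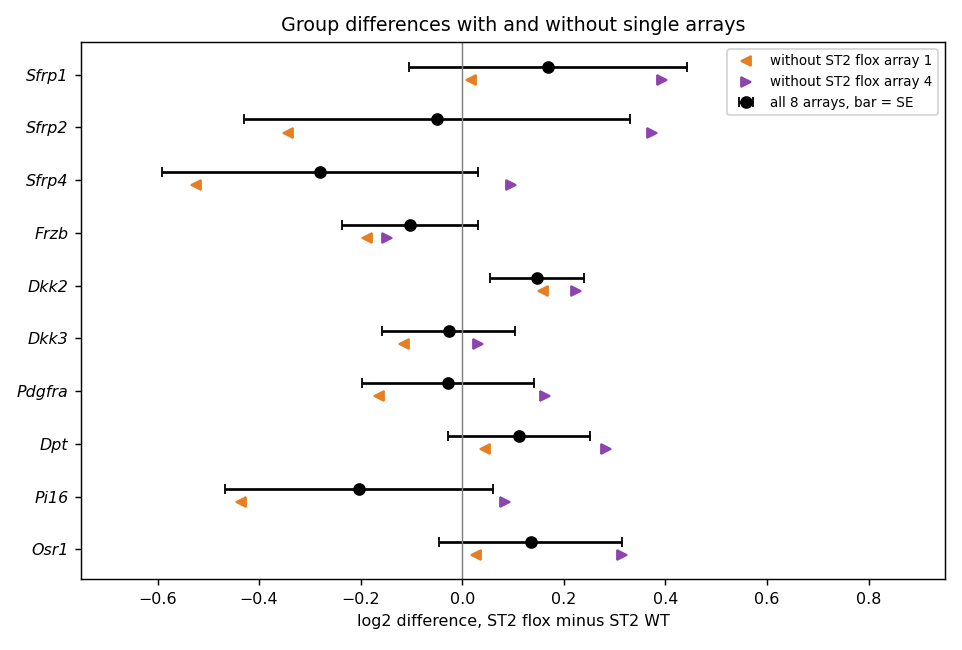
Log2 difference, ST2 flox minus ST2 WT, for each member over all 8 arrays (black, bar = limma standard error) and with ST2 flox array 1 (orange) or array 4 (purple) left out. Sfrp2, Sfrp4, Dkk3, Pdgfra and Pi16 lie below 0 without array 1 and above 0 without array 4, Frzb stays below 0 in both cases, and Dkk2, Dpt, Osr1 and Sfrp1 stay above 0.

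Further genes of these progenitors were also more spread on ST2 flox arrays. All 6 mature fibre markers passed the filter, as did Cd34, Dcn, Lum, Gsn and Hic1 of the progenitor markers. Ly6a had no row naming it alone. Most genes pass this filter, so passing it does not show that a cell type was present. The mean log2 level on ST2 WT arrays ran from 11.92 (Mylpf) to 13.76 (Acta1) for these fibre markers. For these progenitor markers it ran from 8.72 (Hic1) to 13.03 (Dcn). Of 22 other progenitor genes tested, 21 had the larger SD among ST2 flox arrays (66.1% of all genes). For 16 of them ST2 flox array 4 lay below every ST2 WT array (23% of all genes). Their mean centred level was 0.18, 0.10, 0.04 and -0.21 on ST2 flox arrays 1 to 4, against -0.06 to -0.00 on ST2 WT arrays. In this list 15 genes were higher in ST2 flox (20 without ST2 flox array 4, 12 without array 1), with a median difference of 0.08 log2. None passed the adjusted threshold, and 1 had an unadjusted p under 0.05, Dlk1, a preadipocyte membrane protein (0.20, SE 0.09, limma adjusted p 0.912). The surface glycoprotein Thy1 followed at 0.30 (SE 0.14) and the collagen chain gene Col6a3 at 0.14 (SE 0.08), with the same adjusted p. Over the 10 Wnt pathway and fibroblast lists, 4 of 133 genes tested had a limma unadjusted p under 0.05 (3.79% of all genes).

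Adventitial fibroblast genes are the list of the cells that Pi16 marks. Of 14 listed, 12 were tested, and all 12 had the larger SD in ST2 flox (66.1% of all genes). For 10 of these genes ST2 flox array 4 lay below every ST2 WT array (23% of all genes). Their mean centred level was 0.28 on ST2 flox array 1 and -0.44 on array 4, against -0.02 to 0.07 on ST2 WT arrays. Here 4 of 12 were higher in ST2 flox, but 11 without ST2 flox array 4 and 2 without ST2 flox array 1 or ST2 WT array 3, and 0 passed the adjusted threshold or an unadjusted p of 0.05. The 3 with the smallest p were Has1, a hyaluronan synthase (-0.07, SE 0.06), Efhd1 (-0.19, SE 0.20) and Pcolce2, an enhancer of procollagen processing (-0.10, SE 0.12).

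Parenchymal fibroblast genes were flatter, with mean centred levels of -0.05 to 0.05 on ST2 flox and -0.07 to 0.10 on ST2 WT arrays. The SD was larger in ST2 flox for 8 of 11 (66.1% of all genes). ST2 flox array 4 lay below every ST2 WT array for 5 (23% of all genes). Col15a1, a basement membrane collagen chain gene, measured 9.83, 9.81, 9.82 and 9.82 on ST2 flox arrays 1 to 4, against 9.62, 9.52, 9.74 and 9.70 on ST2 WT arrays. It was the most even of the genes named here on ST2 flox arrays and lay above every ST2 WT array on all 4 of them, by 0.17 in the mean (SE 0.06, unadjusted p 0.0152, limma adjusted p 0.912). Lipoprotein lipase (Lpl) differed by -0.10 (SE 0.10) and the glucocorticoid-activating enzyme gene Hsd11b1 by -0.09 (SE 0.09). In this list 0 genes passed the adjusted threshold, and Col15a1 was the 1 gene with an unadjusted p under 0.05 (3.79% of all genes).

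The list mean of myofibroblast genes showed another order of arrays. Their mean centred level was -0.04, 0.38, 0.33 and -0.26 on ST2 flox arrays 1 to 4, against -0.21 to 0.00 on ST2 WT arrays. ST2 flox array 1, the highest for the members, was not high in that mean, but single genes differed. Array 1 of ST2 flox was the highest for 1 of the 10 genes (20.3% of all genes) and array 2 for 5 (14.5% of all genes). The lowest was ST2 flox array 4 for 4 genes (18.4% of all genes), while Tnc and Acta2 were lowest on ST2 flox array 1. All 10 had the higher mean in ST2 flox, also under each scaling tried, and 9 or 10 did so without any single array. Macrophage markers (8 of 8, median 0.21) and endothelial markers (6 of 6, median 0.09) were likewise all higher, beside a median of 0.18 for the myofibroblast genes. None of the myofibroblast genes passed the adjusted threshold or an unadjusted p of 0.05. The matrix glycoprotein gene Tnc differed by 0.41 (SE 0.26), Lrrc15 by 0.32 (SE 0.21) and the smooth muscle actin gene Acta2 by 0.15 (SE 0.10).

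**Figure D4:**
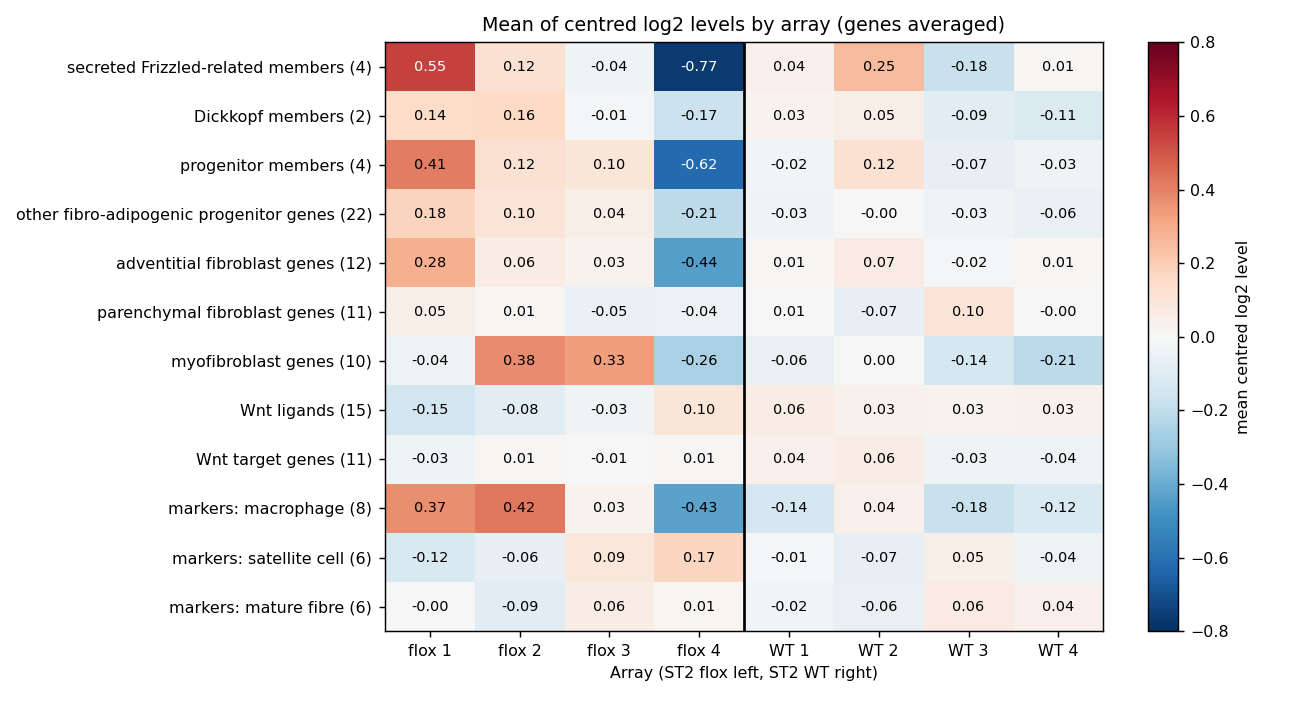
Mean of log2 levels, centred per gene over the 8 arrays, for the members by role, fibroblast lists, Wnt lists and markers of other cells (rows, number of genes tested in brackets) on each array (columns, ST2 flox left and ST2 WT right). The Frizzled-related and progenitor members run from 0.55 and 0.41 on ST2 flox array 1 to -0.77 and -0.62 on array 4, while mature fibre markers stay between -0.09 and 0.06 on all arrays.

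Mean centred levels of the other Wnt pathway lists stayed between -0.15 and 0.10 on every ST2 flox array. Of 10 other secreted antagonists tested, 9 had the lower mean in ST2 flox (7 to 9 without any single array), with a median of -0.11. None passed the adjusted threshold, and 1 had an unadjusted p under 0.05 (3.79% of all genes). It was Sostdc1, an antagonist of both Wnt and bone morphogenetic proteins, which measured 6.39, 6.47, 6.44 and 6.67 on ST2 flox arrays 1 to 4 against 6.67, 6.67, 6.63 and 6.67 on ST2 WT arrays (-0.17, SE 0.07, limma adjusted p 0.912). Dkk4 differed by -0.17 (SE 0.08) and Draxin, a guidance protein related to Dickkopfs, by -0.14 (SE 0.08). The 1 antagonist of this list with the higher mean in ST2 flox was Igfbp4, named after its values were seen (0.18, SE 0.19). It was the brightest of the list and fell across ST2 flox arrays 1 to 4, at 10.60, 10.31, 10.02 and 9.75. On ST2 WT arrays 1 to 4 it measured 10.07, 10.37, 9.73 and 9.78.

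Wnt ligands were lower in ST2 flox for 13 of 15 tested (11 without ST2 flox array 1 or with quantile normalization), with a median of -0.08, and 0 passed the adjusted threshold or an unadjusted p of 0.05. Their mean centred level was -0.15, -0.08, -0.03 and 0.10 on ST2 flox arrays 1 to 4, against 0.03 to 0.06 on ST2 WT arrays, an order opposite to that of the members. The leading genes were Wnt10a (-0.21, SE 0.10), Wnt10b (-0.16, SE 0.09) and Wnt2b (-0.10, SE 0.06). Many of these rows were dim: 8 of 15 ligands, 8 of 10 other antagonists and 6 of 8 R-spondins and receptors had a mean below the median row of the array (7.54), and of all 4976 tested genes below that level 68.4% were lower in ST2 flox, against 42.6% of the genes above it. The part of signal level in these counts was not tested.

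Among receptors and coreceptors 8 of 17 were higher and 9 lower, with a median of -0.02. Without ST2 WT array 2 it was 5 higher and 12 lower. Kremen2, a Dickkopf receptor, differed by -0.16 (SE 0.09), Fzd7 by -0.13 (SE 0.07) and Fzd4 by -0.17 (SE 0.09), and 0 of the list passed the adjusted threshold or an unadjusted p of 0.05. The list of R-spondins, which amplify Wnt signals, and their receptors was lower for 7 of 8 (median -0.04). With cyclic loess or quantile normalization it was lower for 5 of 8. Lgr6, an R-spondin receptor, had an unadjusted p of 0.0295 (-0.22, SE 0.09, limma adjusted p 0.912), Rspo4 differed by -0.21 (SE 0.12) and the ubiquitin ligase gene Znrf3 by -0.04 (SE 0.05), and 0 passed the adjusted threshold.

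Beta-catenin pathway components were higher for 7 and lower for 10 of 17 (median -0.01, and 10 higher without ST2 flox array 4), led by the coactivator gene Bcl9 (0.10, SE 0.10), the signal transducer gene Dvl1 (-0.06, SE 0.06) and the Wnt secretion factor gene Wls (0.09, SE 0.09). Wnt target genes were higher for 3 and lower for 8 of 11 (median -0.01), with no steady direction: 6 were higher without ST2 WT array 1 (median 0.00) and 5 without ST2 WT array 2 or ST2 flox array 2. Their list means lay between -0.03 and 0.01 on ST2 flox and between -0.04 and 0.06 on ST2 WT arrays. The cell cycle gene Ccnd1 differed by 0.20 (SE 0.09), Sp5 by -0.19 (SE 0.10) and Ccn4 by 0.12 (SE 0.09). In neither list did a gene pass the adjusted threshold or an unadjusted p of 0.05.

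**Figure D5:**
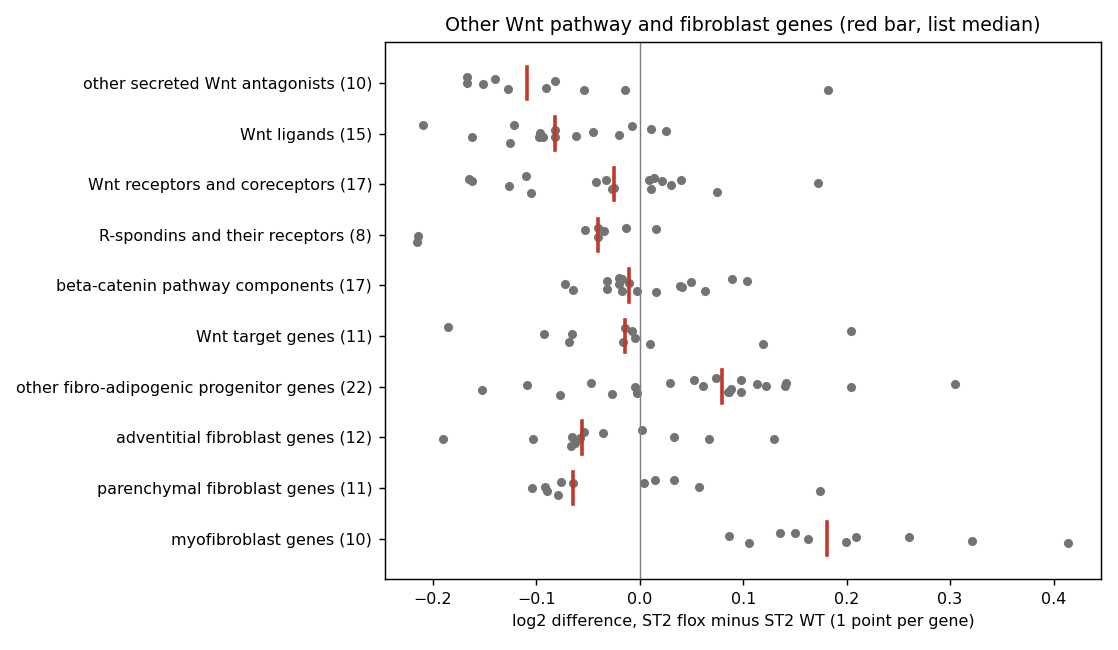
Log2 difference, ST2 flox minus ST2 WT, of each tested gene (grey points, jittered vertically) in 10 Wnt pathway and fibroblast lists that hold no member, with the list median in red. Medians run from -0.11 for the other secreted antagonists to 0.18 for myofibroblast genes, and 0 of the genes passed the adjusted threshold. A limma unadjusted p under 0.05 was seen for 4 of 133 genes (3.79% of all genes).

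Markers of other cells moved with the members to different degrees. Macrophage markers (8 of 8 tested, all with the higher mean in ST2 flox, 6 without ST2 flox array 1) had mean centred levels of 0.37, 0.42, 0.03 and -0.43 on ST2 flox arrays 1 to 4, against -0.18 to 0.04 on ST2 WT arrays, so ST2 flox array 4 was low and arrays 1 and 2 high for them too. Their part in the members' spread was not tested. Satellite cell markers (6 of 6) ran the other way, from -0.12 on ST2 flox array 1 to 0.17 on array 4, against -0.07 to 0.05 on ST2 WT arrays. Mature fibre markers (6 of 6) stayed within -0.09 to 0.06 on ST2 flox and -0.06 to 0.06 on ST2 WT arrays. Endothelial markers (6 of 6, all with the higher mean in ST2 flox, 4 without ST2 WT array 2, and 5 with cyclic loess or quantile normalization) lay between -0.05 and 0.12 on ST2 flox and -0.11 and 0.00 on ST2 WT arrays. Tenocyte markers (6 of 6) fell in the members' order, at 0.14, 0.06, -0.04 and -0.09 on ST2 flox arrays 1 to 4. On ST2 WT arrays they lay between -0.08 and 0.09. Pericyte and smooth muscle markers (6 of 6) lay between -0.06 and 0.09 on ST2 flox and between -0.04 and 0.03 on ST2 WT arrays. Adipocyte markers (4 of 6) were at 0.31, -0.24, -0.02 and -0.09 on ST2 flox arrays 1 to 4. On ST2 WT arrays they lay between -0.14 and 0.10. All 4 were highest on ST2 flox array 1 (20.3% of all genes). Schwann cell markers (3 of 6) lay between -0.12 and 0.10 on ST2 flox and between -0.02 and 0.11 on ST2 WT arrays. Keratinocyte markers (3 of 6) lay between -0.45 and -0.02 on ST2 flox arrays, against -0.26 to 1.65 on ST2 WT arrays with the high value on ST2 WT array 4, and no member was extreme on ST2 WT array 4. Array intensities have no true zero, so absence of a marker cannot be read from them.

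The genes whose centred levels lay nearest to the members' mean profile, out of 14997 compared, were Irak3, Abca6, Anpep, C1qtnf1, Dzip1 and Col14a1. Likeness was measured as the mean absolute difference over the 8 arrays, which was 0.05 to 0.06 log2 for these 6, against a median of 0.21 over all genes compared. Irak3, which dampens Toll-like receptor signalling, measured 9.41, 9.20, 8.99 and 8.50 on ST2 flox arrays 1 to 4, against 9.00, 9.14, 8.90 and 8.81 on ST2 WT arrays. Col14a1, a fibril-associated collagen gene, measured 10.86, 10.50, 10.52 and 9.90 on ST2 flox arrays, against 10.45, 10.48, 10.19 and 10.39 on ST2 WT arrays. All 6 had their low point on ST2 flox array 4 and their high point on ST2 flox array 1, which were 0.79 to 1.02 apart. They were picked for their closeness to a profile of this shape, so the low and high points and their own small group differences, -0.05 to 0.07, follow from the choice.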

How the data were processed

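The authors deposited a table of intensity values for 24922 rows and 8 arrays, made with RMA in Affymetrix Power Tools per the submitters' processing notes (versions, genome build and filters: not given in the sources used here). RMA corrects background, makes arrays alike and summarises probes. The deposited values are linear (5.81 to 19080, array medians 185 to 189). Log2 was taken with no pseudocount. Rows were named from the platform annotation where it gave 1 gene (21425 rows). Rows with a mean below the 25th percentile were left out and the brightest row per gene was kept. No pair of arrays shared more than 14 identical values.

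ST2 flox was compared with ST2 WT (4 arrays each, grouped by title) with limma 3.58.1 in R 4.3.3, on group alone, with Benjamini-Hochberg adjustment over 15007 genes, after a test on simulated data. Precision is limited by the number of arrays. The members and lists were chosen with earlier results of these data known. Genes named are the 10 members, the 3 with the smallest p in each of 10 lists, and the 6 nearest the members' mean profile. Alternatives covered normalization, filter, pseudocount, row choice, array weights, sample number and single arrays.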

Additional observations from a re-analysis of the deposited data

Results flagged for a closer look

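Dixon's ratio was used as a flag, not as a test. It passed its 95% critical value in 5 of 140 sets of 4 arrays, where a single array stood apart from the other 3. For independent sets not chosen by their values, about 1 in 20 would be flagged. These sets include genes chosen with their values known and list means that share genes, so that rate cannot be applied to the count. Dpt was at 10.96 on ST2 flox array 4, against 11.61 to 11.67 on the other ST2 flox arrays. Dkk4 was at 7.05 on ST2 WT array 1 (6.92 to 6.94 on the others). The collagen-like secreted protein gene C1qtnf1 was at 8.21 on ST2 WT array 3 (8.42 to 8.45 on the others). The Wnt ligand list mean was 0.0595 on ST2 WT array 1 (0.0307 to 0.0347 on the others), and that of keratinocyte markers 1.65 on ST2 WT array 4 (-0.26 to -0.16 on the others).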

How the results depend on the processing

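No gene passed the adjusted threshold under quantile normalization, median centring, cyclic loess, other filters, a pseudocount of 16, averaged rows, array weights or the sample number as a replicate block. Without single arrays 0 to 2 genes passed, the pair being Cd3g (1.19, adjusted p 0.0271) and Ctsh (0.56, adjusted p 0.0271) without ST2 flox array 4 in limma, named after their values were seen. Genes at an unadjusted p under 0.05 numbered 569, but 1932 with array weights, 344 with the filter at the 50th percentile, 694 with the replicate block and 245 to 3012 without single arrays (lowest without ST2 flox array 2, 278 without ST2 WT array 1, highest without ST2 flox array 4). The cause was not tested. Same-numbered samples deviated together unevenly (r = -0.00, 0.35, 0.25 and 0.04 for numbers 1 to 4, across genes, which are not independent replicates), so the numbers were not taken as pairs. Of the 4 ST2 flox samples, 1 correlated best with its own number. ST2 flox samples 1 and 2 both correlated best with ST2 WT sample 2. ST2 flox sample 3 did so with ST2 WT sample 4, and ST2 flox sample 4 with ST2 WT sample 3. These best matches kept numbers 1 and 2 apart from numbers 3 and 4, and the reason was not tested. No list of Wnt or fibroblast genes gained a called gene under any of the 17 alternatives. Under other normalizations, averaged rows, a pseudocount of 16 and the replicate block, the median difference of the members stayed between -0.05 and -0.03. Without single arrays it lay between -0.14 and 0.19. It was not computed with array weights, where ST2 flox array 4 had the smallest weight (0.37), or with other filters. The larger SD in ST2 flox was kept by 9 or 10 members, and was not counted with array weights, other filters or the replicate block. Counts of higher genes under other scalings or without single arrays, and ratios of SDs without single arrays, were alternatives chosen after seeing the data. With 4 arrays a group, an SD is itself uncertain.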
